A study of Mus musculus with 10 samples.

Results

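The cytochrome P450 enzymes of families 1 to 4 were followed in the livers of male mice with lung cancer, comparing animals with cancer cachexia with animals that had kept most of their weight. The genes were the rows of the deposited count table whose symbol in GENCODE M21 was Cyp followed by a family number from 1 to 4, a subfamily letter and a gene number, with the gene type protein coding and at least 10 counts in at least 5 of the 10 livers. Of the 43629 genes listed, 80 matched the symbol and type and 59 also reached the count minimum. The other 21 stayed below it, and the highest count of any of them in any liver was 39. The 59 genes fell into 19 subfamilies on 9 chromosomes, and 48 of them reached 10 counts in every liver. No gene entered through the livers of 1 group only, and all 59 passed the filter on low counts of the test described below.

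Cytochromes P450 are haem enzymes of the endoplasmic reticulum that use oxygen and electrons from P450 reductase to hydroxylate or epoxidise small molecules. In the liver, families 1 to 3 clear drugs and other foreign compounds and also oxidise steroids, retinoids, vitamin D and arachidonic acid, whereas many enzymes of family 4 hydroxylate fatty acids at the far end of the chain. Their transcription depends on nuclear receptors and the aryl hydrocarbon receptor, on the sex-specific pattern of growth hormone and on the position of the hepatocyte along the liver lobule.

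The livers came from KL mice, a genetically engineered model of lung cancer that carries Lkb1 flox/flox alleles and had been backcrossed to the FVB strain. Lung tumours were induced in adults by intranasal adenovirus carrying Cre under the CMV promoter, so both groups shared the alleles, the virus and the tumours, and no tumour-free mouse was included. By the weight lost from their peak, mice were classed as having cancer anorexia–cachexia syndrome (CACS, mice 16 to 20) or not (NCACS, mice 11 to 15). The labelled weight change ran from -3 to -14% in NCACS mice (mean -8 ± 4.64%, SD, n = 5) and from -29 to -33% in CACS mice (-30.6 ± 1.82%, SD, n = 5). Tumour burden is not among the labels of these mice, and the age and the hour of collection of each mouse are not given there either.

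Stranded poly(A) RNA was sequenced, and total counts ranged from 31459179 to 40746178 per liver. Levels are given as CPM, the counts of a gene scaled to a common library size after TMM normalisation. Genes are ranked by level per kilobase of exon (RPKM). Shares of counts and levels summed over genes are not corrected for gene length. Differences are log2 fold changes of CACS over NCACS with their standard error (SE), from the quasi-likelihood test of edgeR, and p-values were adjusted by the Benjamini-Hochberg method over all 14143 genes that entered the test. An adjusted p under 0.05 was the threshold, and words such as rose and fell are kept for genes past it. All 6 hepatocyte markers were measured, with a summed level of 64790 to 114600 CPM in the NCACS and 108000 to 131500 CPM in the CACS livers. Because these are whole livers, fewer cells of a type and less RNA per cell cannot be told apart.

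In 4 livers at least 16 of the 59 genes were at the highest or lowest level of the 10 livers. In NCACS mouse 13, 16 genes were at their lowest and 5 at their highest. In CACS mouse 18, 5 were at their lowest and 11 at their highest, and in CACS mouse 20, 6 and 12. In NCACS mouse 15, 11 were at their lowest and 9 at their highest, and the clock-controlled transcription factor Dbp was at 1.27 CPM, against 52.1 to 82.9 CPM in the other 4 NCACS livers and 18.8 to 58.8 CPM in the CACS livers. Counts of calls are therefore also given without each of these pairs, NCACS mice 13 and 15 and CACS mice 18 and 20.

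Of the 59 genes, 5 fell and 2 rose in CACS livers. The 5 that fell (8.47% of the genes) were Cyp2r1, Cyp2c55, Cyp2d12, Cyp2u1 and Cyp2c29, where 1.92% of all tested genes fell. The 2 that rose (3.39%) were Cyp2j9 and Cyp2c37, where 1.89% of all tested genes rose. In either direction the share was 11.9% of the P450 genes and 3.80% of all tested genes. All 7 belong to family 2, and 0 of the 21 genes of families 1, 3 and 4 passed the threshold in edgeR's test (3 at an unadjusted p under 0.05, 3 in DESeq2 and 0 in limma-voom). Levels of CACS and NCACS livers did not overlap for 10 genes (16.9%, 4 higher and 6 lower in CACS), against 7.07% of all tested genes. At an unadjusted p under 0.05 there were 18 genes (30.5%, against 21.6% of all tested genes). DESeq2 called 13 genes (22.0%, 3 higher and 10 lower), against 10% of the genes to which it gave an adjusted p, and gave none to Cyp2j8. Its calls were the 7 genes above, Cyp2c68 (higher) and Cyp1a2, Cyp2j5, Cyp2j6, Cyp4a12a and Cyp4v3 (lower). Without NCACS mice 13 and 15, edgeR called 3 genes lower, where 0.591% of all tested genes were lower, and 0 higher (5 at an unadjusted p under 0.05), where 0.316% of all tested genes were higher. These 3 were Cyp2r1 and Cyp2c55 from the 5 that fell with all livers, and Cyp1a2. Without CACS mice 18 and 20, edgeR called 0 genes lower (14 at an unadjusted p under 0.05), where 0.351% of all tested genes were lower, and 0 higher (4 at an unadjusted p under 0.05), where 0.323% were higher. All 7 genes kept the sign of their fold change in both of these fits. Leaving out 1 liver at a time gave 2 to 5 genes lower and 1 to 2 higher. The lower count was 2 or 3 without NCACS mouse 11, 12, 14 or 15 or CACS mouse 16, 19 or 20. The higher count was 1 without any single liver other than NCACS mouse 14 or CACS mouse 17. Cyp2r1, Cyp2j9 and Cyp2c55 passed in all 10 of these fits, Cyp2d12 in 4, Cyp2c37 and Cyp2u1 in 2 each and Cyp2c29 in 0.

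**Figure D1:**
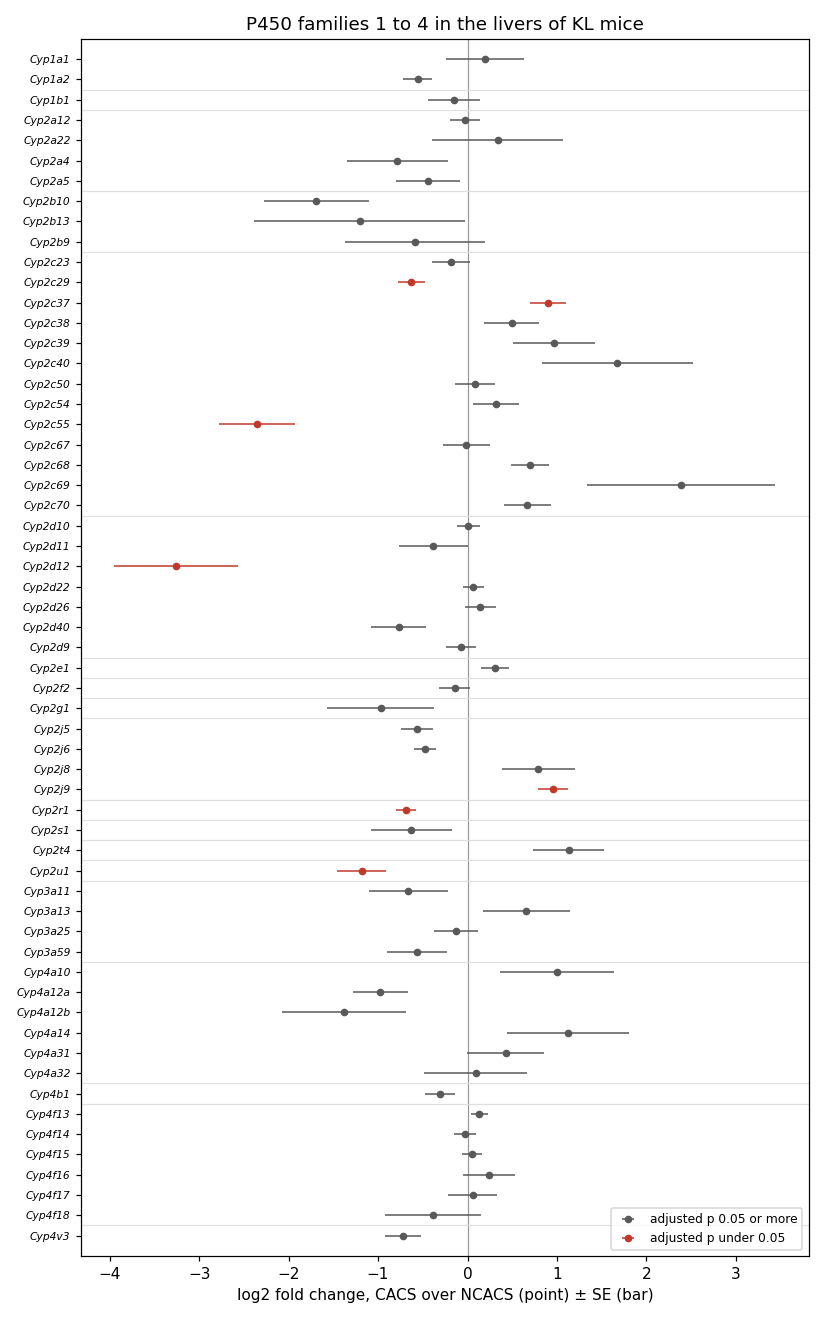
Log2 fold change of CACS over NCACS livers (x axis) for the 59 P450 genes (y axis, grouped by subfamily, with lines between subfamilies), with points for estimates and bars for ± 1 SE. The 7 genes past the threshold are in red, and the widest bars belong to Cyp2b13, Cyp2c69 and Cyp2c40.

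The changes were spread in both directions. Of the 59 genes, 27 had a log2 fold change above 0 and 32 below, with a median of -0.03, and the median over all tested genes was -0.00525. The median size of the change, without its sign, was 0.56 on the log2 scale for the P450 genes and 0.20 for all tested genes. A change of under 0.2 in either direction was found for 17 of the 59. Altogether the 59 genes took 2.99 ± 0.661% of counts in NCACS and 2.87 ± 0.274% in CACS livers (SD, n = 5), and the groups overlapped, at 1.94 to 3.75% and 2.48 to 3.17%. The difference in the total was thus smaller than the spread between livers. Cyp2e1 took 27.4 ± 3.02% of P450 counts in NCACS and 35.1 ± 4.26% in CACS livers, Cyp3a11 took 17.4 ± 7.29% and 12.1 ± 4.04%, and Cyp2c29 took 9.69 ± 1.95% and 6.38 ± 0.688%.

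The haem-binding stretch is a trait of the P450 family and not of the 7 changed genes alone. P450 enzymes hold their haem iron through a cysteine in a conserved stretch of 10 residues, with phenylalanine at position 1, glycine at position 4, the cysteine at position 8 and glycine at position 10. A search of the longest reading frame of each gene in the GENCODE M21 transcripts found this stretch in 56 of the 59 genes, in frames of 338 to 543 codons. The 3 frames without these letters were those of Cyp2b10, Cyp2s1 and Cyp3a59. Other transcripts of these 3 genes were not searched, so this does not show that the enzymes lack the stretch. The 30 coding bases are shown 5′ to 3′ for the 7 changed genes, with the cysteine codon in capitals.
Cyp2r1: ttttctctagggagaagacatTGTcttgga
Cyp2u1: tttgggatagggaagcgggtgTGTatggga
Cyp2j9: ttctcaatgggaaaacgtgctTGTcttgga
Cyp2c29: ttttcaacaggaaaacggattTGTgctgga
Cyp2c37: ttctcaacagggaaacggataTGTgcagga
Cyp2c55: ttctcaataggaaagcgaatgTGCgtggga
Cyp2d12: ttttcagcaggccgcagatcaTGCctgggg
The 7 versions differ from one another, and that of Cyp2c37 is identical to the stretch of Cyp2c54. Among the 56 genes there are 45 distinct versions. Reads from near-identical genes can be counted for the wrong one or left out. Of the 59 genes, 24 shared no 100-base window of their longest transcript with any other gene, 12 shared over 10% and 0 shared over 50%. Cyp2r1, Cyp2u1, Cyp2j9, Cyp2c29 and Cyp2c55 shared none, Cyp2c37 shared 4.70% of its windows, mostly with Cyp2c50, and Cyp2d12 shared 3.79%, mostly with Cyp2d9. Exons of other genes also overlap some of the 7. On the same strand, Cyp2c53-ps overlaps Cyp2c29 and Gm27924 overlaps Cyp2d12. On the opposite strand, Gm23800 overlaps Cyp2c55 and 4930534D22Rik overlaps Cyp2u1. The effect of these overlaps on the counts was not tested.

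Single-gene subfamilies that act on vitamin D and on long-chain fatty acids held the change with the smallest adjusted p. Cyp2r1 (chr7:114549682-114562972, reverse strand of GRCm38) encodes the main vitamin D 25-hydroxylase of the liver. Its level was 12.97, 11.2, 14.4, 12.3 and 11.6 CPM in NCACS mice 11 to 15 and 8.54, 7.34, 7.05, 7.10 and 8.62 CPM in CACS mice 16 to 20. The groups were separate, and the spread within each was narrow. Cyp2r1 fell from 12.5 ± 1.25 to 7.73 ± 0.785 CPM (SD, n = 5), a log2 fold change of -0.69 (SE 0.109, edgeR adjusted p = 0.0120). Cyp2u1 (chr3:131288441-131303227, reverse strand), whose enzyme hydroxylates arachidonic acid and other long-chain fatty acids, was at 14.3, 13.4, 14.1, 18.9 and 17.6 CPM in the NCACS and 3.37, 9.18, 7.11, 10.5 and 4.29 CPM in the CACS livers. CACS mice 16 and 20 were lowest and CACS mouse 19 came nearest to the NCACS livers. Cyp2u1 fell by 1.18 on the log2 scale (SE 0.277, edgeR adjusted p = 0.0397), a mean 2.27-fold lower, and the adjusted p was 0.0830 without CACS mouse 20. Of the other single-gene subfamilies, Cyp2e1, Cyp2f2, Cyp2g1, Cyp2s1, Cyp2t4, Cyp4b1, Cyp4v3 and Cyp1b1 did not pass the threshold. The log2 fold change was -0.97 for Cyp2g1, -0.63 for Cyp2s1, 1.13 for Cyp2t4 and -0.31 for Cyp4b1, with edgeR adjusted p of at least 0.131. Cyp4v3, a fatty acid hydroxylase, lay between 344 and 696 CPM in the NCACS and between 233 and 381 CPM in the CACS livers (log2 fold change -0.72, edgeR adjusted p = 0.0691). DESeq2 called Cyp4v3 lower (DESeq2 adjusted p = 0.00885).

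**Figure D2:**
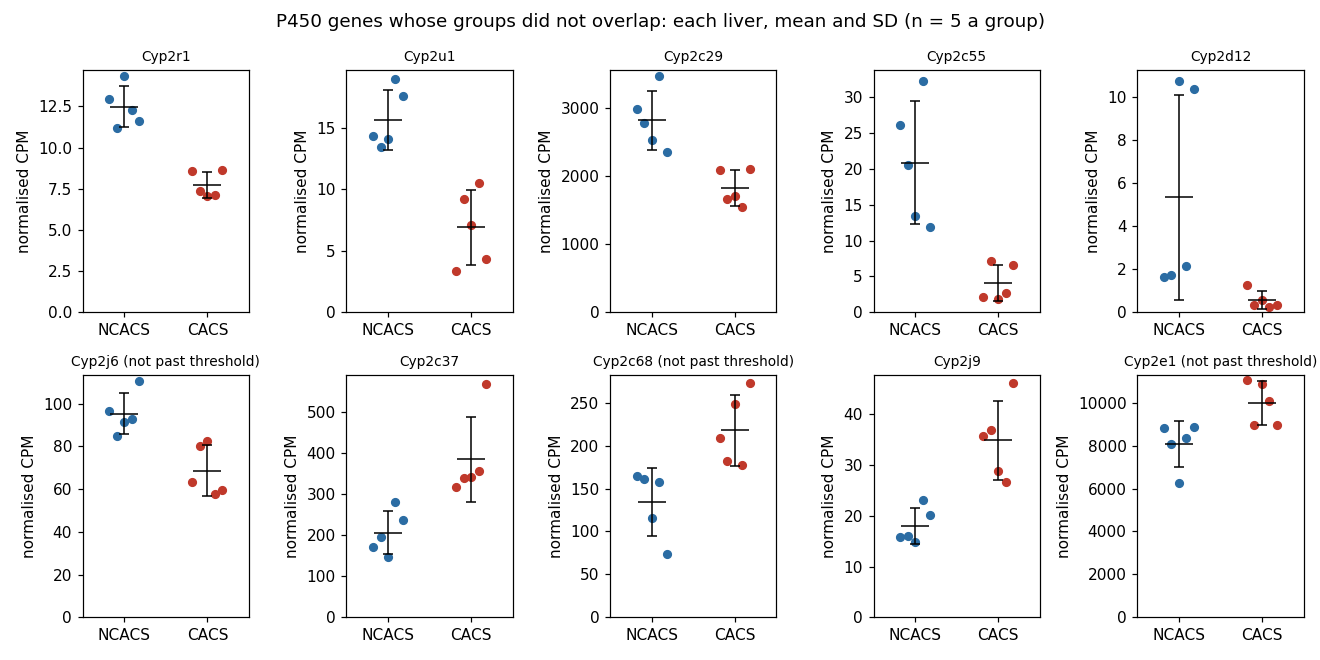
Normalised CPM (y axes, from 0) of the 10 P450 genes whose NCACS and CACS livers did not overlap, with a dot for each liver and black marks for the mean and SD (n = 5). Cyp2r1 ranges from 11.2 to 14.4 CPM in the NCACS and from 7.05 to 8.62 CPM in the CACS livers, and Cyp2d12 has 2 NCACS livers above 10 CPM.

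The Cyp2c subfamily, which oxidises drugs and converts arachidonic acid into epoxides, held 13 of the 59 genes, and all of them but Cyp2c23 lie close together on chromosome 19. Of its log2 fold changes, 9 were above 0 and 4 below, with a median of 0.49 and a range of -2.36 to 2.39. Cyp2c29 and Cyp2c55 fell, Cyp2c37 rose, and the summed level was 5705 ± 996 CPM in the NCACS group and 5332 ± 757 CPM in the CACS group (SD, n = 5). The 3 genes that changed are shown with their promoters because they moved in opposite directions within 1 cluster. These are the RefSeq windows (build GRCm38.p6) from 250 bases before to 50 bases after the start, forward strand, at chr19:39286835-39287134, chr19:39992174-39992473 and chr19:39006769-39007068.
Cyp2c29: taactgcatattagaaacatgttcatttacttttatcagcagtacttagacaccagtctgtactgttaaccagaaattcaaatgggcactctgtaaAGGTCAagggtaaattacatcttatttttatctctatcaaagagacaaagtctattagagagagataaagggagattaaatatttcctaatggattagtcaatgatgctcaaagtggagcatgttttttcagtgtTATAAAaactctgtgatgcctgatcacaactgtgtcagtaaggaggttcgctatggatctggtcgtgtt
Cyp2c37: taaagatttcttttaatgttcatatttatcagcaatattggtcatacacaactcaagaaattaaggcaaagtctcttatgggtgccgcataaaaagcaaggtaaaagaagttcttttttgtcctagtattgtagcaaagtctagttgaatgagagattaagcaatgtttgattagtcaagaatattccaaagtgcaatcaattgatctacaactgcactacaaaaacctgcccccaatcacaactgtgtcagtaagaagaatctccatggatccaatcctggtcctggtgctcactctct
Cyp2c55: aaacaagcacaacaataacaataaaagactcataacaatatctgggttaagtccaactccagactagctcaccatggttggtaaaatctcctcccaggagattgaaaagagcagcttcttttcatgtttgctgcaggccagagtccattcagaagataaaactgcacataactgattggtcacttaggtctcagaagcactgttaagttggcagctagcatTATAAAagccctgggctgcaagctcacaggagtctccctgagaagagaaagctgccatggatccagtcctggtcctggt
Capitals mark letters of any of 7 motifs searched on both strands. These were TATAAA, TTCNNNGAA (STAT), TTANGTAA (the clock-controlled bZIP factors), AGGTCA (nuclear receptor half-site), CAAAGTCC (HNF4), GCGTG (aryl hydrocarbon receptor) and TGTTTAC (FOXA). Cyp2c29 and Cyp2c55 hold TATAAA, found in 13.6% of the 32851 windows of the RefSeq table, and Cyp2c29 also holds AGGTCA, found in 16.3%. The Cyp2c37 window holds none of the 7, which says only that these letters are not there. Over the 47 P450 genes with a window, which have 52 windows in all, 23 windows hold TATAAA, 15 hold AGGTCA, 9 hold CAAAGTCC, 9 hold GCGTG, 5 hold TGTTTAC, 2 hold TTCNNNGAA and 1 holds TTANGTAA. The shares of all windows with the last 5 motifs were 1.42%, 32.4%, 3.65%, 8.3% and 2.32%, in the same order. No binding was measured in these livers.

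Cyp2c29 (chr19:39269405-39330713, forward strand), an epoxygenase of perivenous hepatocytes, was the third most abundant P450 transcript per kilobase, at 924 RPKM in NCACS and 597 RPKM in CACS livers. Its level was 2989, 2790, 2531, 3473 and 2356 CPM in NCACS mice 11 to 15 and 2094, 1671, 1716, 1545 and 2111 CPM in CACS mice 16 to 20. The highest CACS liver stayed below the lowest NCACS liver, mouse 15. Cyp2c29 fell by 0.63 on the log2 scale (SE 0.151, edgeR adjusted p = 0.0425), and leaving out any single liver brought the adjusted p over 0.05, to at most 0.0985 without CACS mouse 19. Cyp2c37 (chr19:39992424-40012243, forward strand), whose frame is 83% identical in its coding bases to that of Cyp2c29, moved the other way. It was at 172, 194, 147, 279.6 and 236 CPM in the NCACS and 317, 339, 341, 356 and 568 CPM in the CACS livers, with CACS mouse 20 far above the other 4. Cyp2c37 rose by a log2 fold change of 0.90 (SE 0.206, edgeR adjusted p = 0.0374), a mean 1.87-fold higher, and the adjusted p reached 0.0839 without NCACS mouse 11.

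Cyp2c37 stands beside Cyp2c54 and Cyp2c50, with coding bases 95.1% and 96.1% identical to its own, and these did not move with it past the threshold. Cyp2c54 lay between 208 and 594 CPM in the NCACS and between 307 and 604 CPM in the CACS livers (log2 fold change 0.32, SE 0.254, edgeR adjusted p = 0.504). Cyp2c50 lay between 530.4 and 1336 CPM in the NCACS and between 727 and 1194 CPM in the CACS livers, with a log2 fold change of 0.09 that turned to -0.12 without NCACS mice 13 and 15. Whether these fold changes differ from that of Cyp2c37 was not tested.

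Cyp2c55 (chr19:39007019-39042693, forward strand) encodes an arachidonic acid hydroxylase induced through the xenobiotic receptors CAR and PXR, and it was the largest fall among the genes called in all 10 fits with 1 liver left out. Its level was 26.1, 20.6, 13.4, 32.3 and 11.8 CPM in NCACS livers and 2.10, 7.11, 1.83, 2.73 and 6.53 CPM in the CACS livers. CACS mice 16, 18 and 19 were all under 3 CPM. Cyp2c55 fell from 20.9 ± 8.60 to 4.06 ± 2.55 CPM (SD, n = 5), a mean 5.14-fold lower, with a log2 fold change of -2.36 (SE 0.426, edgeR adjusted p = 0.0194). Without NCACS mice 13 and 15 the log2 fold change was -2.69 (edgeR adjusted p = 0.0318).

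Among the remaining Cyp2c genes, Cyp2c68 did not overlap between groups. Its level was 164, 161, 116, 158 and 73.6 CPM in the NCACS and 209, 182, 248, 178 and 272 CPM in the CACS livers. The log2 fold change of 0.70 (SE 0.215, edgeR adjusted p = 0.0912) missed the threshold. DESeq2 called Cyp2c68 higher (DESeq2 adjusted p = 0.0266). Its neighbour Cyp2c67, 97.1% identical in its coding bases, had a log2 fold change of -0.01 (SE 0.265). Cyp2c67 shares 23.7% of its windows with other Cyp2c genes and Cyp2c68 shares 19.8%. Cyp2c70 makes the muricholic acids of mouse bile and lay between 323 and 729.9 CPM in the NCACS and between 478 and 948 CPM in the CACS livers (log2 fold change 0.67, edgeR adjusted p = 0.166). Cyp2c23, Cyp2c38 and Cyp2c39 had log2 fold changes of -0.19, 0.49 and 0.97, with edgeR adjusted p between 0.246 and 0.656.

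**Figure D3:**
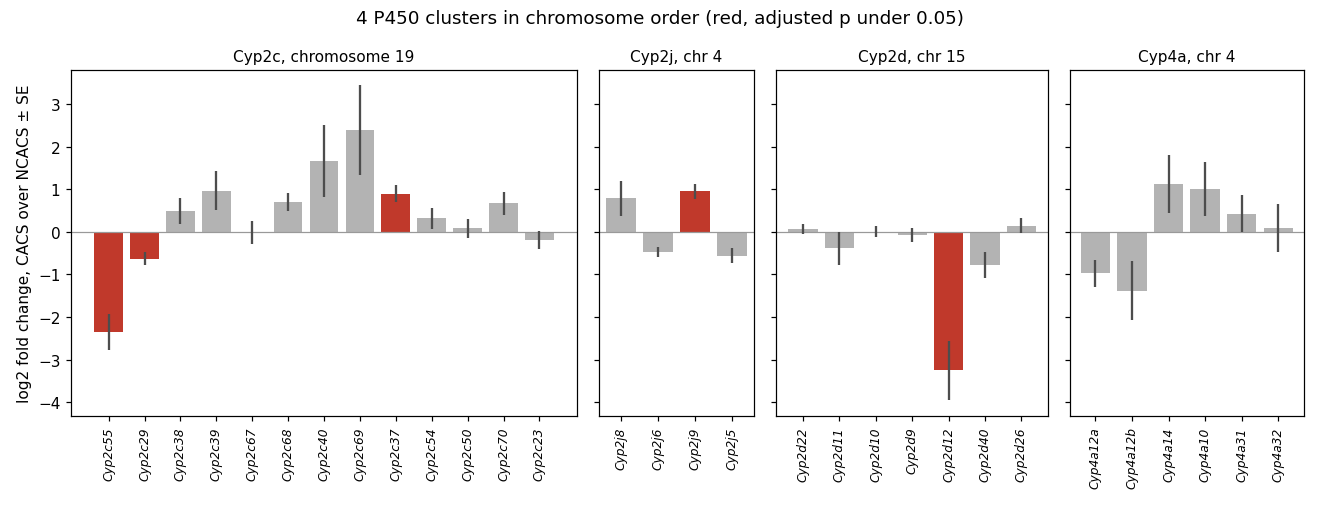
Log2 fold change of CACS over NCACS ± SE (y axis) for the Cyp2c, Cyp2j, Cyp2d and Cyp4a genes in their order along the chromosome (x axes, not to scale), with genes past the threshold in red. Cyp2c55 (-2.36) and Cyp2c29 (-0.63) lie at one end of the Cyp2c cluster and Cyp2c37 (0.90) farther along, and Cyp2j9 (0.95) stands between Cyp2j6 (-0.47) and Cyp2j5 (-0.56).

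The Cyp2j genes, another group of arachidonic acid epoxygenases, lie side by side on chromosome 4. Of the 4, 1 rose and 0 fell in edgeR's test. DESeq2 also called Cyp2j6 (DESeq2 adjusted p = 0.0083) and Cyp2j5 (DESeq2 adjusted p = 0.019) lower. Cyp2j9 (chr4:96568429-96591578, reverse strand) rose, while its neighbours on either side, Cyp2j6 (chr4:96516138-96553661, reverse strand) and Cyp2j5, had fold changes below 0 that missed the threshold in edgeR's test. The promoter windows of Cyp2j9 (chr4:96591436-96591735) and Cyp2j6 (chr4:96553602-96553901), both on the reverse strand, are shown for this contrast, with the same motifs in capitals.
Cyp2j9: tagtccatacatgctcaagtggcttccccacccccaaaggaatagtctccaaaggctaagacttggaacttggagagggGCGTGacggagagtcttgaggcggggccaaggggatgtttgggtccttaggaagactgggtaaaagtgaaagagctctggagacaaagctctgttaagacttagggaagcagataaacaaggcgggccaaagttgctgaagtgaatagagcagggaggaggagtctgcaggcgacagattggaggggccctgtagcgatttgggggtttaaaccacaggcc
Cyp2j6: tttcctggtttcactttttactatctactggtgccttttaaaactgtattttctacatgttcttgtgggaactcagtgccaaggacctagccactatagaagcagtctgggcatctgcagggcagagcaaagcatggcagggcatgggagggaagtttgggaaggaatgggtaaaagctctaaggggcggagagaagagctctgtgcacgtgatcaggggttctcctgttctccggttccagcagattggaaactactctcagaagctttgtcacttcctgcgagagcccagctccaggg
The Cyp2j9 window holds GCGTG and the Cyp2j6 window none of the 7 motifs. Cyp2j9 was at 15.7, 16.01, 14.8, 23.1 and 20.1 CPM in the NCACS and 35.7, 36.9, 28.7, 26.6 and 46.1 CPM in the CACS livers. Every CACS liver was above every NCACS liver, and CACS mouse 20 was highest. Cyp2j9 rose from 17.96 ± 3.51 to 34.8 ± 7.69 CPM (SD, n = 5), a log2 fold change of 0.95 (SE 0.169, edgeR adjusted p = 0.0181). Its adjusted p was at most 0.0471 with 1 liver left out and 0.0707 without NCACS mice 13 and 15.

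Cyp2j6 was at 96.8, 84.9, 91.6, 92.8 and 111 CPM in the NCACS and 63.2, 80.3, 82.5, 57.8 and 59.8 CPM in the CACS livers. The groups did not overlap, but CACS mice 17 and 18 came close to the lowest NCACS liver, mouse 12 (log2 fold change -0.47, SE 0.122, edgeR adjusted p = 0.0551). Cyp2j5, the most abundant Cyp2j transcript at 319 RPKM in NCACS and 216 RPKM in CACS livers, lay between 572 and 888 CPM in the NCACS and between 366 and 661 CPM in the CACS livers (log2 fold change -0.56, SE 0.175, edgeR adjusted p = 0.0928). Only CACS mouse 18 was above the lowest NCACS liver, mouse 13. Cyp2j8 was below 1 CPM in every liver. The coding bases of Cyp2j9 were 82.2% identical to those of Cyp2j6 and 78% to those of Cyp2j5, and the 4 genes shared no window.

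Within the Cyp2d genes of chromosome 15, a set of steroid and drug hydroxylases, 1 of 7 fell, and it was a gene of low level. Cyp2d12 (chr15:82555072-82560403, forward strand) was at 1.63, 1.74, 10.7, 2.17 and 10.4 CPM in NCACS livers and 1.25, 0.341, 0.587, 0.225 and 0.344 CPM in the CACS livers. NCACS mice 13 and 15 were about at the same level and far above the other 3 NCACS livers. Cyp2d12 fell by 3.26 on the log2 scale (SE 0.693, edgeR adjusted p = 0.0311), and without mice 13 and 15 the value was -1.73 (edgeR adjusted p = 0.113). Its coding bases were 92.1% identical to those of Cyp2d9 and 91.1% to those of Cyp2d10, both of which are far more abundant per kilobase. Cyp2d10 was at 548 RPKM in NCACS and 552 RPKM in CACS livers, with a log2 fold change of 0.01, and this near-zero value turned negative without NCACS mouse 13, CACS mouse 18 or CACS mouse 19. Cyp2d9, a testosterone hydroxylase typical of males, lay between 964 and 1400 CPM in the NCACS and between 743 and 1306 CPM in the CACS livers (log2 fold change -0.07, SE 0.166), and its sign turned without NCACS mouse 15 or CACS mouse 20. Cyp2d11, Cyp2d22, Cyp2d26 and Cyp2d40 had log2 fold changes of -0.38, 0.07, 0.14 and -0.77, with edgeR adjusted p of at least 0.166.

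Most of the highly expressed P450 transcripts did not pass the threshold. Cyp2e1, which oxidises ethanol, acetone and paracetamol, was by far the most abundant, at 3739 RPKM in NCACS and 4626 RPKM in CACS livers. Its level was 8796, 8073, 6235, 8373 and 8866 CPM in the NCACS and 11050, 8955, 10860, 10090 and 8960 CPM in the CACS livers. The groups did not overlap, but CACS mice 17 and 20 were only just above the highest NCACS liver, and the log2 fold change of 0.31 (SE 0.152) had an edgeR adjusted p of 0.268. Cyp3a11, the main drug-metabolising P450 of the 3A group, was second, at 1092 RPKM in NCACS and 690.0 RPKM in CACS livers. It varied more between NCACS livers than between the groups, at 5911, 3955, 1322, 8922 and 7695 CPM in the NCACS and 5283, 4131, 2274, 1889 and 3992 CPM in the CACS livers (log2 fold change -0.66, SE 0.443, edgeR adjusted p = 0.413). NCACS mouse 13 was the lowest of all. Cyp3a13, Cyp3a25 and Cyp3a59 had log2 fold changes of 0.66, -0.13 and -0.56, with edgeR adjusted p of at least 0.358.

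**Figure D4:**
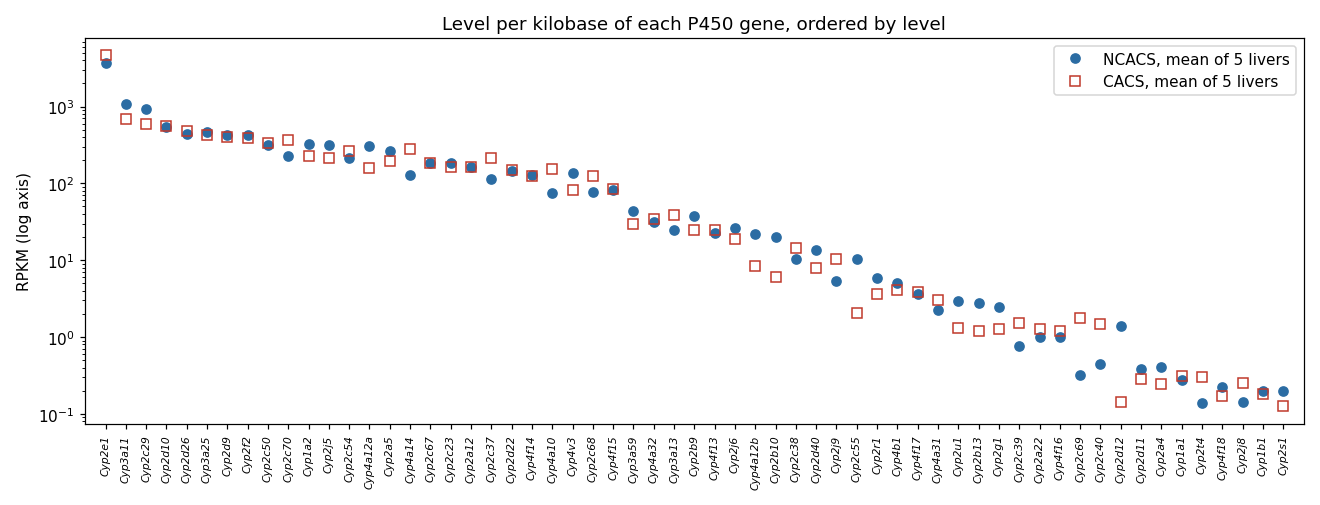
Mean level per kilobase (RPKM, log axis) of each of the 59 P450 genes in NCACS (filled circles) and CACS livers (open squares), ordered from left to right by level. Levels run from 4183 RPKM for Cyp2e1 to 0.161 RPKM for Cyp2s1 as the mean over all livers.

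By receptor, the targets of the aryl hydrocarbon receptor did not pass the threshold. Cyp1a2, the caffeine demethylase of perivenous hepatocytes, was at 828, 614, 450.3, 787 and 631 CPM in the NCACS and 402, 521, 454, 454 and 423 CPM in the CACS livers. Only NCACS mouse 13 was below the highest CACS liver, mouse 17, and the log2 fold change was -0.55 (SE 0.162, edgeR adjusted p = 0.0774, DESeq2 adjusted p = 0.0108). Without NCACS mice 13 and 15 the edgeR adjusted p was 0.0467. Cyp1a1 and Cyp1b1 averaged 0.822 and 1.10 CPM, with fold changes of 0.19 and -0.15 whose signs turned when single livers were left out. Over the list of 5 measured targets, which also holds Tiparp and Nqo1, 0 passed in edgeR or limma-voom, 1 passed in DESeq2 and 1 had an unadjusted p under 0.05, and the median log2 fold change was 0.17.

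The list of P450 targets of CAR and PXR held only 3 genes, Cyp2b10, Cyp2c55 and Cyp3a11, and does not stand for all targets of these receptors. All 3 were below 0 and 1 (Cyp2c55) passed. Cyp2b10, the classical CAR target, was at 27.9, 21.6, 37.8, 79.98 and 41.6 CPM in the NCACS and 16.6, 3.07, 11.7, 3.32 and 30.1 CPM in the CACS livers. CACS mouse 20 lay within the NCACS range, and the log2 fold change of -1.69 (SE 0.586) had an edgeR adjusted p of 0.124. The genes of the receptors had fold changes above 0 that did not pass. Nr1i2, which encodes PXR, lay between 54.5 and 93.9 CPM in the NCACS and between 83.5 and 145 CPM in the CACS livers (log2 fold change 0.58, edgeR adjusted p = 0.0916), and Nr1i3, which encodes CAR, had a log2 fold change of 0.72 (edgeR adjusted p = 0.134).

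The PPARα targets of the Cyp4a group, which hydroxylate fatty acids during fasting, had fold changes above 0 in 4 of 4 genes and passed in 0 by edgeR, by DESeq2, by limma-voom or at an unadjusted p under 0.05, with a median log2 fold change of 0.72. Cyp4a14 was at 359, 728, 61.7, 309 and 194 CPM in the NCACS and 809, 1216, 1225, 135 and 211 CPM in the CACS livers (log2 fold change 1.12, SE 0.681, edgeR adjusted p = 0.362). CACS mice 16, 17 and 18 were above all NCACS livers, while CACS mice 19 and 20 lay within the NCACS range. Cyp4a10 was also above all NCACS livers in CACS mice 16, 17 and 18, with 180.4, 213, 24.03, 204 and 175 CPM in the NCACS and 459, 416, 502, 36.96 and 186 CPM in the CACS livers (log2 fold change 1.01, SE 0.637). NCACS mouse 13 and CACS mouse 19 were lowest of their groups for both genes. Cyp4a31 and Cyp4a32 had log2 fold changes of 0.43 and 0.09, and Cyp4a32 turned to -0.10 with limma-voom. Cyp4a32 shares 20.1% of its windows with other genes. Ppara itself had a log2 fold change of -0.19 (edgeR adjusted p = 0.660).

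The male-biased and female-biased P450 genes respond to the growth hormone pattern. The list of 4 male-biased genes, which adds Cyp7b1 of family 7 to Cyp2d9, Cyp4a12a and Cyp4a12b, had 4 of 4 fold changes below 0, a median of -0.84 and 0 past the threshold in edgeR or limma-voom (1 in DESeq2, 1 at an unadjusted p under 0.05). NCACS mouse 15 had the highest level of all livers for each of these genes. Without it the log2 fold changes were 0.02 for Cyp2d9, -0.79 for Cyp4a12a, -0.85 for Cyp4a12b and -0.30 for Cyp7b1. With all livers Cyp7b1 was at -0.71. Cyp4a12a, which makes 20-hydroxy arachidonic acid, was at 676, 661, 494, 801 and 1110 CPM in the NCACS and 436, 575, 466, 219 and 204 CPM in the CACS livers (log2 fold change -0.98, SE 0.306, edgeR adjusted p = 0.095, DESeq2 adjusted p = 0.015). Only CACS mouse 17 was above the lowest NCACS liver. Its copy Cyp4a12b, 98.5% identical in coding bases and sharing 36.2% of its windows, had a log2 fold change of -1.38 (SE 0.694, edgeR adjusted p = 0.274), and the split of reads between the pair is uncertain.

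Of the 7 measured female-biased genes, 4 were above 0 and 3 below, with a median log2 fold change of 1.48, and the one past the threshold was Cyp39a1 of family 39, which passed in 1 of the 10 fits with 1 liver left out. In this list 3 genes had an unadjusted p under 0.05, DESeq2 called 2 and limma-voom called 1. Cyp17a1, also outside families 1 to 4, had the largest fold change of the list. It missed the threshold (log2 fold change 2.61, SE 0.762, edgeR adjusted p = 0.0777, DESeq2 adjusted p = 0.0231). Cyp2c69 was at 0.445, 1.44, 0.388, 0.361 and 0.123 CPM in the NCACS and 0.225, 0.236, 5.19, 0.31 and 8.96 CPM in the CACS livers. CACS mice 18 and 20 were high and the other 3 were within the NCACS range (log2 fold change 2.39, SE 1.05, edgeR adjusted p = 0.213). Cyp2c40, which shares 44.1% of its windows, mostly with Cyp2c69, was also highest in CACS mice 18 and 20, at 4.47 and 8.50 CPM. Without these 2 livers the log2 fold change was -1.12 for Cyp2c69 and -0.48 for Cyp2c40. Cyp2b9 and Cyp2b13 were high in NCACS mouse 14 and CACS mouse 18, where Cyp2b9 was at 161 and 132 CPM and Cyp2b13 at 16.9 and 9.92 CPM. Cyp2b13 had the widest error of the 59 genes (log2 fold change -1.21, SE 1.18), and the value was 0.02 without NCACS mouse 14. Cyp2a4 averaged 0.567 CPM and did not pass. Cux2, a repressor of male genes in female liver, was at 30.6, 17.3 and 53.4 CPM in CACS mice 16, 18 and 20 and between 0.291 and 0.817 CPM in the other 7 livers (log2 fold change 5.44, SE 1.14, edgeR adjusted p = 0.0298). Cux2 passed in 3 of the 10 fits with 1 liver left out, and its limma-voom adjusted p was 0.320. The part of Cux2 in the P450 levels was not tested.

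By position in the lobule, 7 pericentral P450 genes gave 1 rise (Cyp2c37) and 1 fall (Cyp2c29), with a median log2 fold change of 0.09. Cyp2a5, a coumarin hydroxylase, lay between 201 and 872 CPM in the NCACS and between 299.8 and 552 CPM in the CACS livers (log2 fold change -0.44, edgeR adjusted p = 0.509). The periportal Cyp2f2 had a log2 fold change of -0.14 (SE 0.175). Of 6 other pericentral genes 1 fell, the stem cell marker Lgr5 (log2 fold change -0.78, edgeR adjusted p = 0.0408), which passed in 1 of the 10 fits with 1 liver left out. Of these 6, 5 were below 0, 2 had an unadjusted p under 0.05 and DESeq2 called 2. Of 6 other periportal genes 0 passed by edgeR, by DESeq2 or at an unadjusted p under 0.05.

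The Cyp4f genes, which inactivate leukotrienes by hydroxylation, had the narrowest range of fold changes among the subfamilies with more than 1 gene. Their 6 log2 fold changes ran from -0.38 to 0.24, and the summed level was 611 ± 76.7 CPM in the NCACS group and 622 ± 26.1 CPM in the CACS group (SD, n = 5). Cyp4f14 had a log2 fold change of -0.03 (SE 0.121). Across all 59 genes, the median coefficient of variation (SD over mean) between livers of a group was 30.7% in NCACS and 35.4% in CACS. Cyp4f13 was the steadiest in NCACS livers, at 7.12%. Among the 52 genes with a mean of at least 1 CPM, 15 varied by more than 50% within NCACS, led by Cyp2b13 at 132%.

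**Figure D5:**
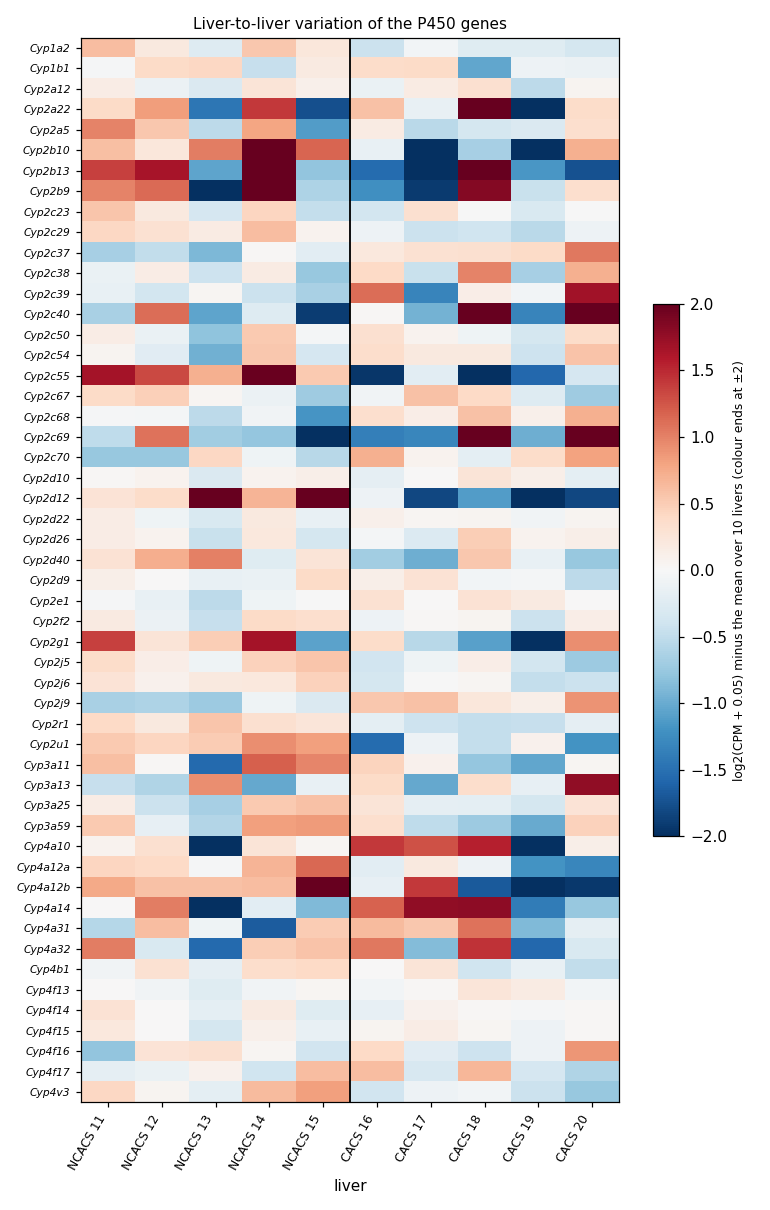
Level of the 52 P450 genes with a mean of at least 1 CPM (rows, by subfamily) in each liver (columns, NCACS left of the line), as log2(CPM + 0.05) minus the mean over the 10 livers, with colours ending at ±2. Cyp4f13, Cyp4f14 and Cyp4f15 are pale, Cyp2b9, Cyp2b13, Cyp2c40 and Cyp2c69 are strong in single livers, and NCACS mouse 13 is low for Cyp3a11, Cyp4a10 and Cyp4a14.

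Of 10 measured genes on a list of redox partners, 2 fell and 0 rose, where 1.92% of all tested genes fell. Cyb5b, the cytochrome b5 of the mitochondrial outer membrane, fell from between 417 and 519 CPM in NCACS to between 225 and 302 CPM in the CACS livers (log2 fold change -0.82, SE 0.117, edgeR adjusted p = 0.00764). Pgrmc2, a haem-binding membrane protein, fell by 0.45 on the log2 scale (edgeR adjusted p = 0.0273), and passed in 4 of the 10 fits with 1 liver left out. The other 8 of 10 measured redox partners did not pass. Among them was Cyb5a, the other cytochrome b5 gene of the list (log2 fold change 0.29, SE 0.161, edgeR adjusted p = 0.326). P450 reductase itself, Por, was at 514, 451, 507, 143 and 99.3 CPM in the NCACS and 1207, 317, 756, 754 and 1105 CPM in the CACS livers (log2 fold change 1.27, SE 0.481, edgeR adjusted p = 0.151), with NCACS mice 14 and 15 lowest. Of 13 genes of haem synthesis and breakdown 0 passed in edgeR, DESeq2 or limma-voom, and 3 had an unadjusted p under 0.05.

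Of 30 measured regulators of P450 transcription, 3 rose and 0 fell in edgeR's test, where 1.89% of all tested genes rose and 1.92% fell. Besides Cux2, the regulators that rose were Arnt, the partner of the aryl hydrocarbon receptor (log2 fold change 0.53, SE 0.0912, edgeR adjusted p = 0.0165), and Hnf4a, a master factor of hepatocytes (log2 fold change 0.50, SE 0.120, edgeR adjusted p = 0.0435). Arnt passed in all 10 fits with 1 liver left out and Hnf4a in 1. At an unadjusted p under 0.05 there were 10 regulators, DESeq2 called 6 and limma-voom called 2. DESeq2 called Bcl6 lower (edgeR log2 fold change -1.17, edgeR adjusted p = 0.0806, DESeq2 adjusted p = 0.00977). Its edgeR log2 fold change was -0.72 without NCACS mouse 15. Of 13 measured P450 genes of families 5 and above, Cyp39a1 rose (log2 fold change 1.48) and Cyp8b1 and Cyp51 fell (log2 fold changes of -2.99 and -1.59). Over all tested genes 1.89% rose and 1.92% fell. In this list 4 genes had an unadjusted p under 0.05, DESeq2 called 4 and limma-voom called 3.

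Markers of other cells were set beside these values. Of 6 Kupffer cell markers 6 were below 0 and 1, Cd5l, fell, with a summed level of 151 to 257 CPM in the NCACS and 92.3 to 177 CPM in the CACS livers. Of these 6, 4 had an unadjusted p under 0.05 and DESeq2 called 3, and Cd5l passed in 2 of the 10 edgeR fits with 1 liver left out. Of 4 measured lung markers 1 rose, Sftpa1, at most 5.65 CPM in any liver. In edgeR's test 0 of the 6 hepatocyte, 6 endothelial, 6 stellate cell, 5 cholangiocyte, 4 lymphocyte and 2 neutrophil markers passed the threshold. At an unadjusted p under 0.05 these counts were 1, 0, 2, 1, 2 and 2, DESeq2 called 1 lymphocyte and 2 neutrophil markers, and limma-voom called 0. The part of these cells in the P450 levels was not tested. Cyp2c23, Cyp2c38, Cyp2c39, Cyp2c67, Cyp2c68, Cyp2c70, Cyp2d11, Cyp2d22, Cyp2d26, Cyp2d40, Cyp2j6, Cyp2j8, Cyp3a13, Cyp3a25, Cyp3a59, Cyp4f13 and, outside these families, Bcl6, Cyb5a, Dbp, Nr1i2, Nr1i3, Ppara and Por were named after their values were seen. Cyp2a12 and Cyp2a22 (log2 fold changes of -0.03 and 0.34) and Cyp4f15, Cyp4f16, Cyp4f17 and Cyp4f18 did not pass, which completes the 59 genes.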

How the data were processed

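Liver RNA of male KL mice, 5 in the NCACS group and 5 in the CACS group, was sequenced as stranded poly(A) libraries with 100-base single reads. Part of the genotype shared by both groups is not reported here. The authors aligned reads to GRCm38 with STAR 2.4.1d, counted them per gene with HTSeq 0.6.1 and deposited raw counts. The annotation release and strand setting are not given in the sources used here, so overlapping genes are uncertain. Symbols came from GENCODE M21, which lacked 1081 of 43629 identifiers.

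Deposited counts were analysed with edgeR 4.0.16 (filterByExpr, TMM, quasi-likelihood test, Benjamini-Hochberg adjustment) in R 4.3.3. Alternatives were DESeq2 1.42.0, limma-voom (limma 3.58.1), other scalings, filters and thresholds, and leaving out livers. Leaving out NCACS mice 13 and 15 together, or CACS mice 18 and 20, was added after the data were seen. The fit was tested on simulated data.

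Genes were named when past the threshold, highest of their subfamily per kilobase, among the 3 largest rises or falls with a mean of at least 1 CPM, or in a list of sex-biased, receptor-target or zonated P450 genes. From other lists, genes past the threshold were named. The genes and lists were chosen with earlier results of these data known. Each mouse is a separate animal, and the labels give no batch. No 2 livers of a group were duplicates (smallest chi-square per degree of freedom 46.1).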

Additional observations from a re-analysis of the deposited data

Results flagged for a closer look

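Within the 5 livers of a group, the gap between the highest or lowest liver and its neighbour was divided by the range of the group on the log2 scale, and 120 groups of 5 values were examined this way. A ratio above 0.71 was counted, which chance gives in about 1 of 20 groups, and 5 were found. CACS mouse 20 was high for Cyp2c37 (ratio 0.798). NCACS mouse 13 was low for Cyp2d10 (0.775), Cyp2e1 (0.734) and Cyp4a10 (0.91), the last at 24.03 CPM against 175 to 213 CPM in the other NCACS livers. NCACS mouse 15 was high for Cyp4a12b (0.902), at 116 CPM against 34.7 to 39.0 CPM. Without NCACS mouse 13 and 15 together the log2 fold change of Cyp2e1 was 0.25 (edgeR adjusted p = 0.420).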

How the results depend on the processing

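The count of changed genes, 538 in edgeR's test, was 1386 in DESeq2, 34 at an adjusted p under 0.01, 179 with a log2 fold change of at least 1 in size, 132 without NCACS mice 13 and 15, 98 without CACS mice 18 and 20, and 178 to 519 with 1 liver left out. P450 genes that rose, 2 in the report, were 1 to 2 with 1 liver left out, and 0 without NCACS mice 13 and 15, without CACS mice 18 and 20, at an adjusted p under 0.01 or with a log2 fold change of at least 1. P450 genes that fell, 5 in the report, were 10 in DESeq2, 3 with library sizes that left out the 10 most abundant genes, 2 to 5 with 1 liver left out, 3 without NCACS mice 13 and 15, 0 without CACS mice 18 and 20, 0 at an adjusted p under 0.01 and 3 with a log2 fold change of at least 1. The cause of these shifts was not tested. Library sizes without the 10 most abundant genes, used without TMM normalisation, also changed the split of all changed genes, from 267 higher and 271 lower to 339 and 171. The difference in the summed share of counts, -0.116 percentage points, ran from -0.378 without NCACS mouse 13 to 0.074 without NCACS mouse 14, within the spread between livers.

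For the 37 genes named by rule, 29 of 695 log2 fold changes had another sign than in the report, all in 10 genes that had not passed the threshold. With 1 liver left out they ran from -0.12 to 0.37 for Cyp1a1, -0.27 to 0.025 for Cyp1b1, -3.91 to 0.025 for Cyp2b13, -0.062 to 0.25 for Cyp2c50, -0.061 to 0.058 for Cyp2d10, -0.16 to 0.030 for Cyp2d9, -0.37 to 0.36 for Cyp4a32 and -0.086 to 0.046 for Cyp4f14. Without NCACS mice 13 and 15 they were -0.10 for Cyp1a1, -0.12 for Cyp2c50, -0.038 for Cyp2d10 and -0.13 for Cyp4a32. Without CACS mice 18 and 20 they were 0.10 for Cyp1b1, -0.48 for Cyp2c40, -1.12 for Cyp2c69, -0.017 for Cyp2d10, 0.071 for Cyp2d9 and -0.31 for Cyp4a32. Cyp4a32 was at -0.10 in limma-voom, and Cyp4f14 at 0.028 with library sizes that left out the 10 most abundant genes. No paired analysis was possible because the mice of the groups carry different numbers. With 5 livers a group, calls near the threshold depended on single livers, and genes under 1 CPM rest on few counts.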
